A study of Homo sapiens with 12 samples.

Results

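The 36 genes described here belong to the ATF4 amino acid response and to the cytosolic aminoacyl-tRNA synthetases. They were taken by symbol from the 59276 gene symbols of the deposited expression values, and all 36 were found. Of these, 24 are transcription regulators, stress effectors, amino acid and one-carbon enzymes and secreted or surface proteins of the ATF4 response, and 12 encode cytosolic tRNA synthetases.

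When amino acids run short, when unfolded protein builds up in the endoplasmic reticulum or when mitochondria fail, kinases phosphorylate the translation initiation factor eIF2, which slows protein synthesis in general and favors translation of ATF4 mRNA. ATF4, a basic leucine zipper factor, then binds C/EBP-ATF response elements (CARE) as a dimer with C/EBP family partners and raises genes of amino acid synthesis, amino acid import and tRNA charging. Plasma cells and myeloma cells secrete large amounts of immunoglobulin and are known for a heavy use of the unfolded protein and integrated stress responses. Because ATF4 is controlled mainly at translation, mRNA levels give only part of its activity.

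JJN3 cells come from a human multiple myeloma. In the drug arm, cells received DMSO, the vehicle, or 10 uM MS023, an inhibitor of type I protein arginine methyltransferases (PRMT), for 3 days. In the genetic arm, JJN3 cells carried a lentiviral Cas9 with an mCherry reporter, were sorted for mCherry, received a lentiviral doxycycline-inducible guide RNA and were selected with puromycin. Both guide groups got doxycycline for 3 days, so isgCtrl (control guide) and PRMT1-KO (guide iPRMT1_1) shared Cas9, selection and doxycycline. Each of the 4 groups had 3 replicates, and nothing in the labels says that these were separate cultures, so p values measure the spread between the samples, which may be technical. PRMT1-KO was an edited pool from a single guide. isgCtrl and DMSO cells differed in Cas9, guide, sorting, puromycin, doxycycline and vehicle together, and these cannot be told apart.

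Values are log2(TPM+1), where TPM is a gene's length-scaled share of the transcripts of a sample. A gene was tested if its mean exceeded 1 in either group. Genes with a limma adjusted p (Benjamini-Hochberg, over all tested genes) under 0.05 were called if their log2 fold change was also beyond 0.48 in either direction. TPM have a fixed sum, so the depth of each sample cannot be read from them. In each sample 20988 to 22241 genes were above 0, and the lowest correlation of log2(TPM+1) between replicates of a group was 0.993. PRMT1 had 860 ± 9.15 TPM in isgCtrl and 304 ± 4.34 TPM in PRMT1-KO (SD, n = 3), a log2 fold change of -1.497 (adjusted p = 7.20e-04). TPM include transcripts of edited alleles, so this does not measure loss of protein. In DMSO cells all 10 plasma cell markers had a mean log2(TPM+1) above 1, whereas T cell, myeloid and mature B cell markers summed to at most 3.00 TPM in any of the 12 samples and no defining marker of these types reached that mean. The 3 stromal markers summed to 0.266 to 3.98 TPM in 11 samples and to 10.97 TPM in isgCtrl replicate 2. Of the 10 plasma cell markers, 6 were called higher after MS023, with SLAMF7 (2.37) farthest, and CD38 (-0.88) lower. Over all tested genes 11.6% were called higher and 19.3% lower. The median log2 fold change of the 10 was 0.67. XBP1, which is among these markers, is also counted with the ATF6 and XBP1 arm genes below. Their sum was 5545 to 5795 TPM in DMSO samples, 11773 to 12132 TPM in MS023 samples, 2766 to 2836 TPM in isgCtrl samples and 2980 to 3168 TPM in PRMT1-KO samples. JCHAIN alone made up most of each sum. Its mean was 4836 TPM in DMSO, 10537 TPM in MS023, 1972 TPM in isgCtrl and 2239 TPM in PRMT1-KO. None of the 9 markers tested in PRMT1-KO against isgCtrl was called, and 0.781% of all tested genes were. In isgCtrl against DMSO IRF4 (0.72) was higher and MZB1 (-5.15), SLAMF7 (-2.92), CD38 (-1.37) and JCHAIN (-1.29) were lower. Over all genes of that comparison 7.23% were called higher and 6.70% lower. The median of the markers was -0.26. No source used here says whether both arms came from the same stock of JJN3 cells, so a difference of stock cannot be told apart from the other differences between the arms. Mitochondrially encoded transcripts took 4.91 to 5.002% of TPM in DMSO samples, 5.62 to 5.83% in MS023 samples, 4.22 to 4.43% in isgCtrl samples and 3.96 to 4.15% in PRMT1-KO samples. Whether these differences bear on the members was not tested. In bulk RNA, fewer expressing cells and less RNA per cell cannot be told apart.

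Promoters were read from RefSeq (GRCh38.p14), from 250 bases before to 50 bases after each annotated start, for the 28 members in the promoter table. The members without an entry were NUPR1, EIF4EBP1, PSPH, SHMT2, ALDH1L2, GPT2, LARS1 and YARS1. The CARE core TGATGNAA, searched on both strands, was in a promoter of 10 of the 28 members (35.7%) against 1217 of 27305 genes in the table (4.46%). It was in 7 of 10 synthetases and in 3 of 18 other members. A match says only that these letters are there, and the members include known ATF4 targets that define the motif. The matches are printed because ASNS, CHAC1 and the synthetases are textbook targets among the members. Each is given in the direction in which the motif, in capitals, reads TGATGNAA.
CEBPG, chr19:33374060-33374089, plus strand: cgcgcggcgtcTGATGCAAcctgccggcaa
CHAC1, chr15:40953251-40953280, minus strand: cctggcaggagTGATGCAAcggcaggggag
ASNS, chr7:97872458-97872487, minus strand: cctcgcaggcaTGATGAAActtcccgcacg
CARS1, chr11:3057407-3057436, plus strand: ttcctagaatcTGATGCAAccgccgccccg
GARS1, chr7:30594834-30594863, minus strand: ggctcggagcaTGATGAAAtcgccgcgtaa
NARS1, chr18:57621804-57621833, minus strand: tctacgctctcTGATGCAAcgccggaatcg
MARS1, chr12:57488053-57488082, minus strand: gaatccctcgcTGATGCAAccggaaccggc
IARS1, chr9:92293692-92293721, plus strand: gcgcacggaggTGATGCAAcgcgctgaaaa
AARS1, chr16:70289675-70289704, plus strand: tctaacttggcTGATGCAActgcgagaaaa
TARS1, chr5:33440956-33440985, minus strand: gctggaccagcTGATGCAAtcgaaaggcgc
In 8 of these 10 the core is TGATGCAA, and ASNS and GARS1 have TGATGAAA. The promoter of CEBPG, a dimer partner of ATF4, has its match 42 bases before the start, and ASNS 68 bases before.

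MS023 raised ATF4 mRNA together with some stress effectors, while no amino acid enzyme and no synthetase was called higher. Of 35 members tested against DMSO, 5 rose (14.3%) and 4 fell (11.4%). Over all 12903 tested genes 11.6% rose and 19.3% fell, so the members' shares of calls were close to or under those of all genes. GDF15, among the 5, and NUPR1 exceeded the mean of 1 only in the group where each was higher, and among the 33 members above it in both groups 4 rose and 4 fell. PPP1R15A, ATF5, GDF15, DDIT4 and ATF4 rose, and GPT2, ALDH1L2, PHGDH and PCK2, all metabolic enzymes, fell. The median log2 fold change was 0.09 over the members and -0.11 over all tested genes. Scaling TPM by median ratios moved the median of all genes from -0.11 to -0.0040, and each member's fold change read higher by about that shift; the members then split into 6 higher and 3 lower. Without overlap between the groups, 14 of the 35 members were higher, above the 23.2% of all tested genes. By the same measure 9 of the 35 were lower, under the 36.3% of all.

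**Figure D1:**
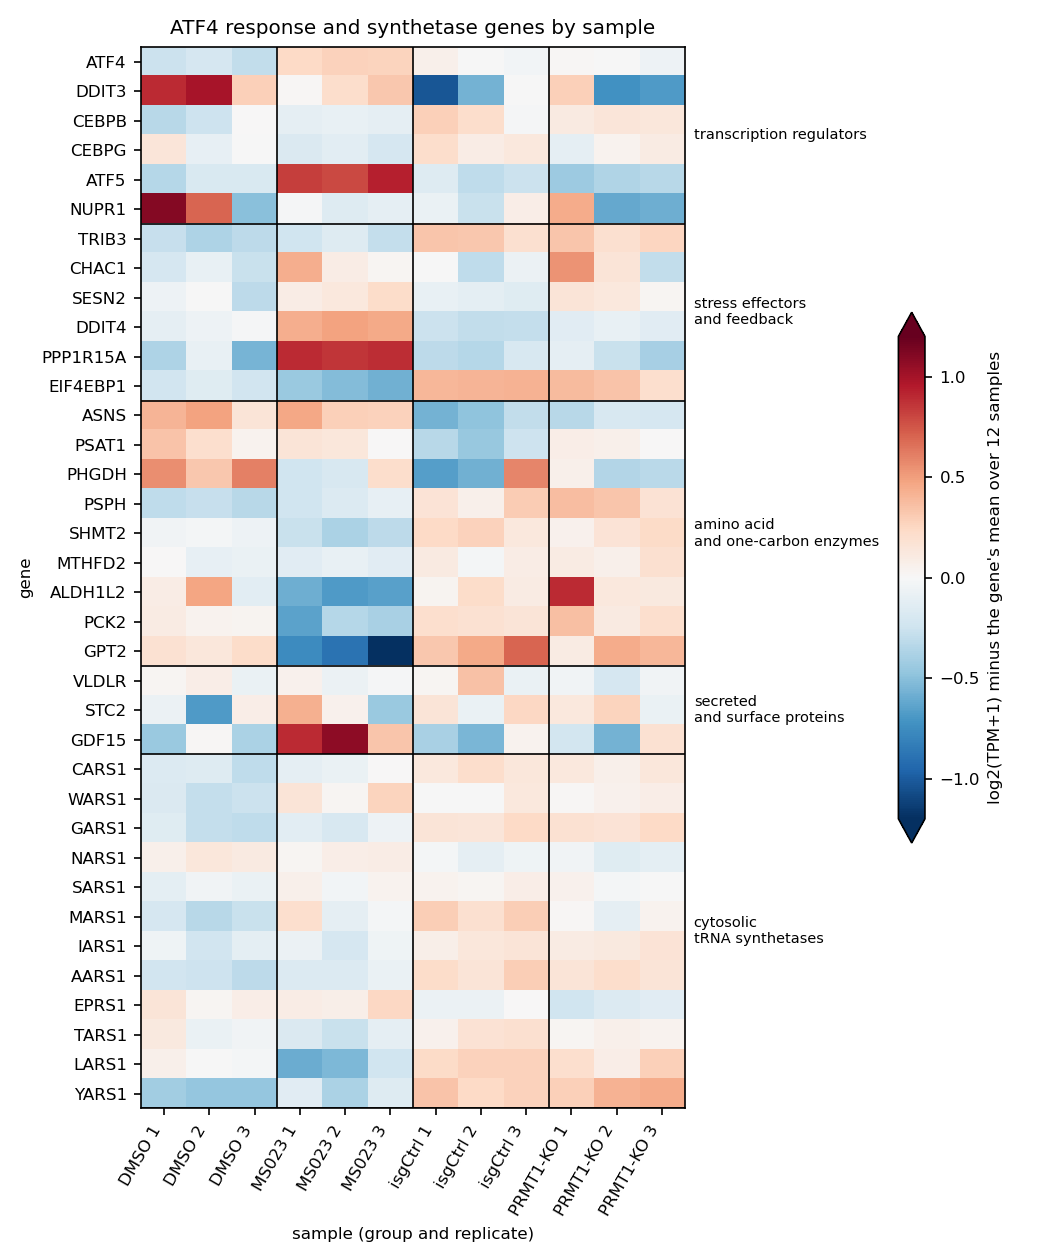
Each row is a member gene and each column a sample; color gives log2(TPM+1) minus the gene's mean over the 12 samples, blue for lower and red for higher, with the ends of the scale at 1.2. PPP1R15A and ATF5 stand out in the 3 MS023 samples, GPT2 is lowest there, and ASNS and YARS1 separate the drug arm from the genetic arm.

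Among the transcription regulators, ATF4 itself, at chr22:39519695-39522683 (hg38), was the most abundant by TPM. Its log2(TPM+1) was 8.51, 8.56 and 8.46 in DMSO and 9.01, 9.04 and 9.03 in MS023, which is 364 ± 12.6 against 520 ± 6.23 TPM (SD, n = 3). The groups did not overlap, and the log2 fold change was 0.51 ± 0.060 (SE, adjusted p = 0.00114). ATF5, a related factor whose translation is also controlled by eIF2 phosphorylation, had log2(TPM+1) of 5.65, 5.81 and 5.81 in DMSO and 6.82, 6.78 and 6.93 in MS023. All MS023 samples lay above all DMSO samples, with a log2 fold change of 1.09 ± 0.079 (adjusted p = 2.35e-04). Of the exon bases of ATF5, 19.5% lie opposite exons of NUP62, and no source used here states strand-specific counting, so reads of this stretch cannot be told apart.

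DDIT3, which encodes the proapoptotic factor CHOP, went the other way. Its log2(TPM+1) was 4.35, 4.45 and 3.74 in DMSO and 3.48, 3.67 and 3.78 in MS023. DMSO replicate 3 lay within the range of MS023, and the log2 fold change of -0.54 ± 0.20 was not called (adjusted p = 0.0672). Without DMSO replicate 3 it was -0.76 and called (adjusted p = 0.00676). Exons of DDIT3 overlap those of MARS1 on the opposite strand over 355 bases, which is 27.2% of the exon bases of DDIT3. CEBPB and CEBPG, C/EBP partners of ATF4, gave log2 fold changes of 0.09 (adjusted p = 0.488) and -0.19 (adjusted p = 0.111). NUPR1, a small stress-induced chromatin protein, was low, with log2(TPM+1) of 1.73, 1.33 and 0.13 in DMSO and 0.47 to 0.61 in MS023. The DMSO samples spanned the MS023 samples, and its call turned on DMSO replicate 3: the log2 fold change was -0.53 (adjusted p = 0.308) with that replicate and -0.996 (adjusted p = 0.00565) without it. NUPR1 passed the filter only through the DMSO group, so the latter value does not support a change.

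Of the 6 stress effectors, PPP1R15A and DDIT4 were called higher and none lower, against 11.6% and 19.3% of all genes. PPP1R15A (GADD34), the phosphatase subunit that reverses eIF2 phosphorylation, had log2(TPM+1) of 4.51, 4.80 and 4.33 in DMSO and 5.78, 5.74 and 5.77 in MS023. This was the largest rise among the members, from 22.6 ± 3.92 to 53.3 ± 0.716 TPM, and the groups were far from overlapping. Its log2 fold change was 1.22 ± 0.12 (adjusted p = 7.11e-04). DDIT4 (REDD1), which inhibits mTORC1, had log2(TPM+1) of 5.36, 5.40 and 5.45 in DMSO and 5.90, 5.94 and 5.91 in MS023. The groups did not overlap and the log2 fold change was 0.52 ± 0.060 (adjusted p = 0.00112).

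TRIB3, a pseudokinase that feeds back on ATF4, and CHAC1, which degrades glutathione, are among the most used readouts of ATF4 activity. TRIB3 had log2(TPM+1) of 4.57, 4.47 and 4.53 in DMSO and 4.60, 4.69 and 4.56 in MS023. MS023 replicate 3 lay below DMSO replicate 1, and the log2 fold change was 0.09, with a 95% interval of -0.07 to 0.26 (adjusted p = 0.293). CHAC1 had log2(TPM+1) of 1.68, 1.79 and 1.61 in DMSO and 2.31, 1.96 and 1.90 in MS023. The groups did not overlap, but the log2 fold change of 0.37 ± 0.13 did not pass (adjusted p = 0.0506). SESN2, a leucine sensor upstream of mTORC1, gave 0.27 (adjusted p = 0.0648). EIF4EBP1, the translational repressor 4E-BP1, had log2(TPM+1) of 7.13, 7.22 and 7.13 in DMSO and 6.91, 6.84 and 6.79 in MS023. All MS023 samples were lower, but the log2 fold change of -0.31 ± 0.067 (adjusted p = 0.0107) was within the fold limit and so not a call.

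No amino acid or one-carbon enzyme rose and 4 of 9 fell, against 11.6% and 19.3% of all genes. The median log2 fold change of the 9 was -0.28. ASNS, asparagine synthetase, the prototype gene for the CARE and with a match printed above, had log2(TPM+1) of 3.77, 3.85 and 3.52 in DMSO and 3.83, 3.65 and 3.64 in MS023. The groups overlapped throughout, and the log2 fold change was -0.01 with a 95% interval of -0.27 to 0.26 (adjusted p = 0.970). Its sign turned under median-ratio scaling, to 0.11 (adjusted p = 0.454). GPT2, the mitochondrial alanine transaminase, fell most. Its log2(TPM+1) was 4.06, 4.01 and 4.09 in DMSO and 3.11, 2.99 and 2.54 in MS023, which is 15.6 ± 0.455 against 6.47 ± 1.47 TPM. The groups were well apart, with a log2 fold change of -1.17 ± 0.15 (adjusted p = 0.00166).

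ALDH1L2, the mitochondrial 10-formyltetrahydrofolate dehydrogenase, had log2(TPM+1) of 2.002, 2.39 and 1.79 in DMSO and 1.33, 1.24 and 1.27 in MS023. The log2 fold change was -0.78 ± 0.15 (adjusted p = 0.00788) with no overlap. PCK2, mitochondrial phosphoenolpyruvate carboxykinase, had log2(TPM+1) of 3.53, 3.47 and 3.47 in DMSO and 2.79, 3.09 and 3.05 in MS023. Its samples did not overlap either, and the log2 fold change was -0.52 ± 0.096 (adjusted p = 0.00632), but without MS023 replicate 1 it was -0.42 and no longer past the fold limit. Under median-ratio scaling PCK2 was also within the limit, at -0.41. PHGDH, which opens the serine pathway, had log2(TPM+1) of 2.25, 2.02 and 2.30 in DMSO and 1.45, 1.499 and 1.90 in MS023. Although the groups did not overlap, its call at -0.57 ± 0.15 (adjusted p = 0.0203) was lost without DMSO replicate 1 or 3 or MS023 replicate 1 or 2, with adjusted p between 0.0618 and 0.0640. With all 12 samples in a single fit PHGDH had an adjusted p of 0.120.

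The other members of the serine and folate route were not called after MS023. Folate enzymes outside the members are described below. PSAT1 and PSPH, which follow PHGDH in serine synthesis, gave log2 fold changes of -0.10 (adjusted p = 0.439) and 0.14 (adjusted p = 0.130). SHMT2 and MTHFD2, mitochondrial folate enzymes, gave -0.28 (adjusted p = 0.0121) and -0.06 (adjusted p = 0.430), and SHMT2 was lower in all 3 MS023 samples without reaching the fold limit. Among secreted and surface proteins GDF15, a stress hormone of the TGF-beta family, was low but higher after MS023. Its log2(TPM+1) was 0.52, 0.98 and 0.59 in DMSO and 1.86, 2.04 and 1.30 in MS023, which is 0.635 ± 0.295 against 2.39 ± 0.844 TPM. The groups did not overlap and the log2 fold change was 1.03 ± 0.22 (adjusted p = 0.0106). GDF15 passed the filter only through the MS023 group. STC2, a secreted glycoprotein, gave 0.24 (adjusted p = 0.521), and VLDLR, a lipoprotein receptor, stayed at 0.15 to 0.71 log2(TPM+1) in all 12 samples and was not tested.

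**Figure D2:**
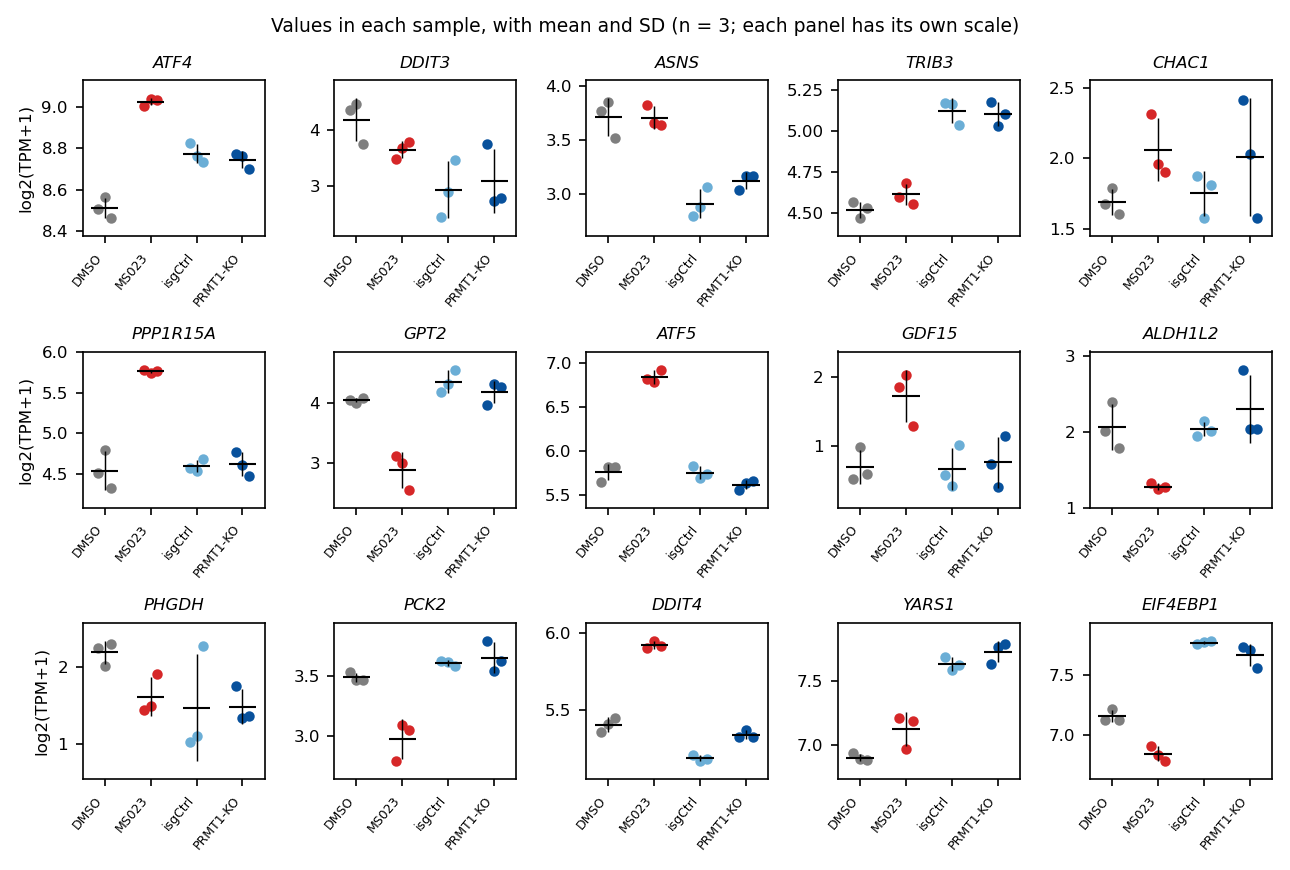
Points are single samples in log2(TPM+1) for 15 members in the 4 groups; the horizontal bar is the mean and the vertical line the SD (n = 3), and each panel has its own axis. ATF4, ATF5, PPP1R15A and DDIT4 are highest in MS023 and GPT2, PCK2 and ALDH1L2 lowest there, whereas ASNS, TRIB3, YARS1 and EIF4EBP1 separate the guide groups from the DMSO and MS023 groups.

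None of the 12 synthetases was called after MS023, although limma called 30.9% of all genes tested; at an unadjusted p under 0.05 there were 4, and 56.5% of all genes. The median log2 fold change of the 12 was 0.11, and they ranged from -0.47 (LARS1, the leucyl enzyme) to 0.39 (WARS1, the tryptophanyl enzyme, which interferon also induces). WARS1 had log2(TPM+1) of 6.30, 6.18 and 6.21 in DMSO and 6.62, 6.49 and 6.74 in MS023, without overlap (adjusted p = 0.0114). LARS1 had log2(TPM+1) of 6.41, 6.35 and 6.33 in DMSO and 5.75, 5.81 and 6.11 in MS023, also without overlap (adjusted p = 0.0130). Both were past the p limit and within the fold limit. WARS1 passed the fold limit under median-ratio scaling (0.51), and LARS1 passed it without DMSO replicate 3 (-0.49) or without MS023 replicate 3 (-0.58). For 9 of the 12 the 95% interval of the log2 fold change lay within ±0.48.

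Between these, MARS1 had a log2 fold change of 0.29 (adjusted p = 0.0522), YARS1 of 0.22 (adjusted p = 0.0709) and CARS1 of 0.15 (adjusted p = 0.143). AARS1, GARS1, SARS1, EPRS1 and IARS1 ranged from 0.03 to 0.13, and NARS1 and TARS1 from -0.18 to -0.04. The 7 synthetases with a CARE core in the promoter had a median of 0.12 and the 3 with a promoter but no match 0.10. Among 8 other cytosolic synthetases, which are not members, 3 fell after MS023 (19.3% of all genes did): TARS3 (-0.90), VARS1 (-0.83) and QARS1 (-0.54), and the median was -0.36. Of those 8, 6 were in the promoter table and none of them had the CARE core. These 6 had a median of -0.21, and 1 of them was called lower. VARS1 and TARS3, the 2 largest falls, had no entry, so their promoters were not searched. These medians are descriptions over few genes, and their difference was not tested.

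No member passed the test in PRMT1-KO against isgCtrl. In limma 0 of the 33 members tested were called, against 0.781% of all tested genes in either direction (0.415% higher, 0.366% lower), and 4 had an unadjusted p under 0.05, as did 18.6% of all genes. Their median log2 fold change was -0.0020, and -0.04 over all genes. The 95% interval lay within ±0.48 for 27 of the 33, including all 12 synthetases, so for these a change past the fold limit was outside the interval. For the others the intervals were wider, up to ±0.90 for DDIT3. NUPR1, VLDLR and GDF15 were too low to test. Without overlap, 3 members were higher and 4 lower, and 9.11% and 17.6% of all tested genes were.

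ATF4 had log2(TPM+1) of 8.82, 8.76 and 8.73 in isgCtrl and 8.77, 8.76 and 8.70 in PRMT1-KO. ATF5 had log2(TPM+1) of 5.83, 5.69 and 5.74 in isgCtrl and 5.56, 5.63 and 5.66 in PRMT1-KO. The first pair of groups overlapped, and its log2 fold change was -0.03 (95% interval -0.16 to 0.10, adjusted p = 0.793). ATF5 was lower in all PRMT1-KO samples by a little, at -0.14 (adjusted p = 0.290). DDIT3 had log2(TPM+1) of 2.43, 2.89 and 3.45 in isgCtrl and 3.74, 2.73 and 2.78 in PRMT1-KO, a spread within each group that was wider than the difference of 0.16 between them.

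PPP1R15A and DDIT4, which rose after MS023, were close to their controls here. PPP1R15A had log2(TPM+1) of 4.57, 4.54 and 4.69 in isgCtrl and 4.77, 4.62 and 4.48 in PRMT1-KO. DDIT4 had log2(TPM+1) of 5.21, 5.17 and 5.18 in isgCtrl and 5.32, 5.37 and 5.32 in PRMT1-KO. DDIT4 did not overlap, at a log2 fold change of 0.15 (adjusted p = 0.176), and PPP1R15A did, at 0.02 (adjusted p = 0.912). TRIB3 had log2(TPM+1) of 5.17, 5.16 and 5.04 in isgCtrl and 5.17, 5.03 and 5.10 in PRMT1-KO. CHAC1 had log2(TPM+1) of 1.88, 1.58 and 1.81 in isgCtrl and 2.41, 2.03 and 1.58 in PRMT1-KO. Both overlapped. EIF4EBP1 had log2(TPM+1) of 7.76, 7.77 and 7.78 in isgCtrl and 7.74, 7.71 and 7.56 in PRMT1-KO, lower in each sample with a log2 fold change of -0.10 (adjusted p = 0.425).

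The serine enzyme PSAT1 was the member nearest to a call. It had log2(TPM+1) of 3.35, 3.23 and 3.43 in isgCtrl and 3.76, 3.74 and 3.68 in PRMT1-KO. All PRMT1-KO samples were higher, and its log2 fold change of 0.39 ± 0.068 had the lowest adjusted p of the members (0.0675). ASNS had log2(TPM+1) of 2.80, 2.88 and 3.07 in isgCtrl and 3.04, 3.17 and 3.17 in PRMT1-KO, overlapping, with a log2 fold change of 0.21 (adjusted p = 0.268). GPT2 had log2(TPM+1) of 4.19, 4.33 and 4.57 in isgCtrl and 3.97, 4.32 and 4.27 in PRMT1-KO. PCK2 had log2(TPM+1) of 3.63, 3.62 and 3.58 in isgCtrl and 3.79, 3.54 and 3.63 in PRMT1-KO. The samples of both genes overlapped between the groups.

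The low enzymes PHGDH and ALDH1L2 each had a library apart from the rest. PHGDH had log2(TPM+1) of 1.03, 1.11 and 2.27 in isgCtrl and 1.75, 1.34 and 1.37 in PRMT1-KO, and ALDH1L2 had 1.95, 2.13 and 2.01 in isgCtrl and 2.82, 2.04 and 2.03 in PRMT1-KO. GDF15 had log2(TPM+1) of 0.57, 0.42 and 1.01 in isgCtrl and 0.74, 0.40 and 1.14 in PRMT1-KO. Of the synthetases, MARS1 (methionyl) was lower in all PRMT1-KO samples, with log2(TPM+1) of 6.93, 6.84 and 6.93 in isgCtrl and 6.66, 6.54 and 6.68 in PRMT1-KO. Its log2 fold change was -0.27 ± 0.063 (adjusted p = 0.115). YARS1 had log2(TPM+1) of 7.69, 7.59 and 7.63 in isgCtrl and 7.64, 7.77 and 7.79 in PRMT1-KO, which overlapped.

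**Figure D3:**
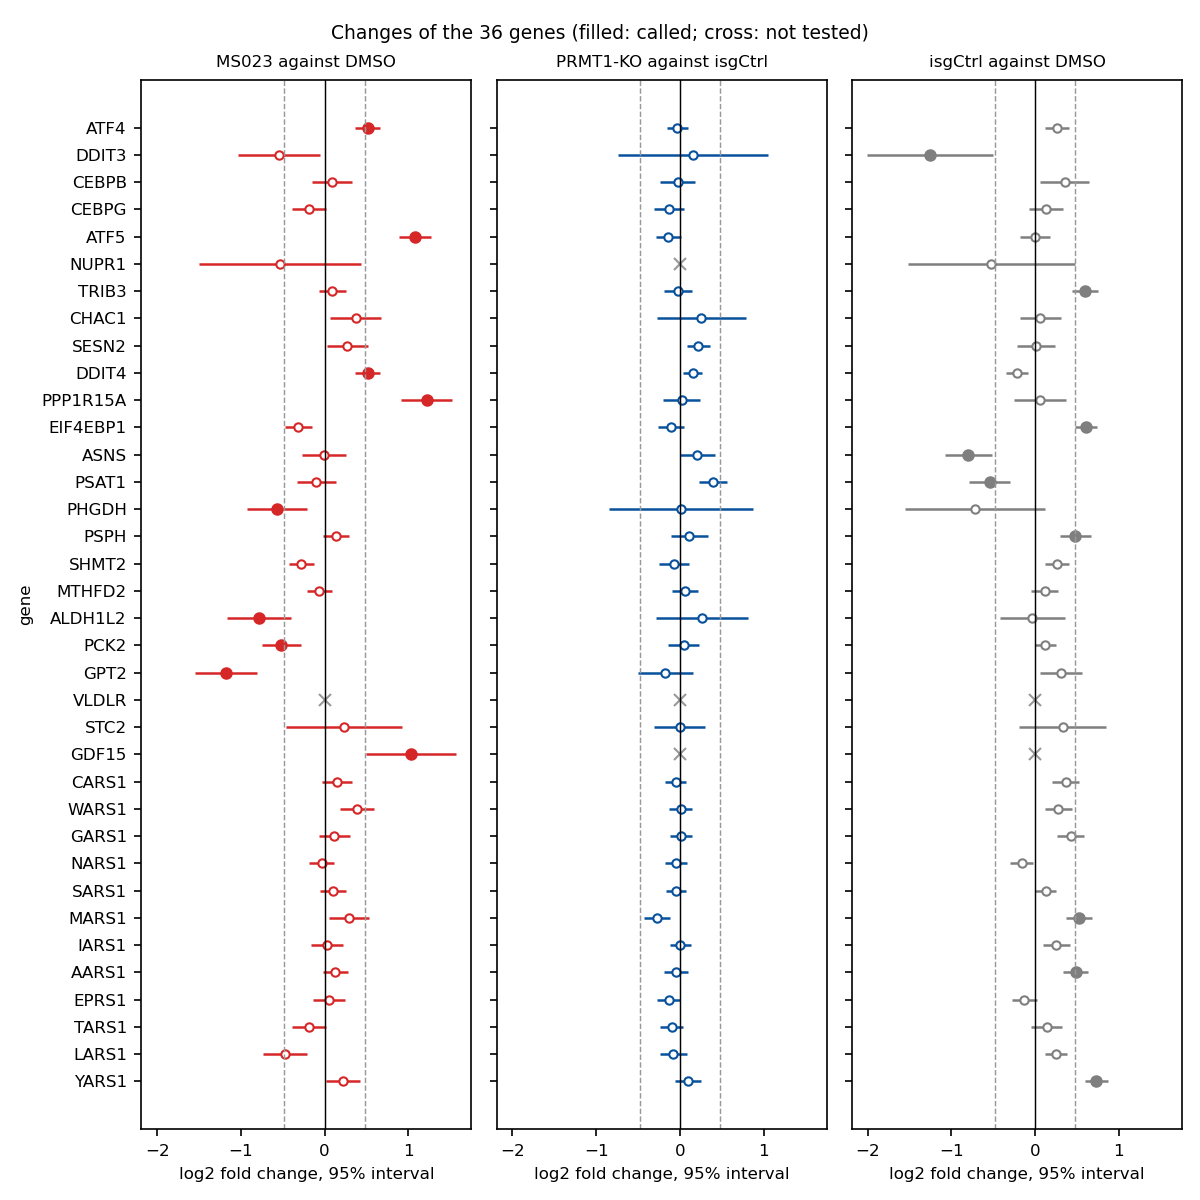
Log2 fold changes of the 36 members with 95% intervals in the 3 comparisons; filled points are called, open points are not, crosses at 0 mark genes not tested and dashed lines the fold limit of 0.48. The middle panel has no filled point, the left panel has 5 on the high and 4 on the low side, and the right panel 6 and 3.

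In isgCtrl cells, which carry Cas9 and a control guide, 3 of the 12 synthetases were called higher than in DMSO cells. Over all tested genes 7.23% were called higher. ASNS, PSAT1 and DDIT3 were called lower, as were 6.70% of all genes. Against DMSO, 6 of 34 members tested were higher (17.6%; 7.23% of all 12661 genes) and 3 lower (8.82%; 6.70% of all). The median log2 fold change was 0.13 over the members and 0.07 over all genes. Under median-ratio scaling, 3 members were higher and 3 lower. With isgCtrl as the second group and DMSO as the first, 16 members were higher without overlap (31.8% of all genes were) and 6 lower (19.9% of all). These cells also differed in plasma cell markers, as given above, and in the 6 handling steps that separate the arms. Whether they came from the same stock is not given in the sources used here. Every value of isgCtrl against DMSO includes these differences.

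YARS1 (tyrosyl) rose most, with log2(TPM+1) of 6.94, 6.89 and 6.88 in DMSO and the 7.59 to 7.69 in isgCtrl given above, which is 119 ± 2.42 against 198 ± 7.22 TPM. The log2 fold change was 0.73 ± 0.054 (adjusted p = 8.39e-04), and no sample overlapped. MARS1 (0.53, adjusted p = 0.00292) and AARS1, the alanyl enzyme (0.48, adjusted p = 0.00353), were the other synthetases called higher. Of the 12, 9 were higher without overlap (31.8% of all genes were) and 2 lower (19.9% of all). The median of the 12 was 0.27, against 0.07 over all genes. At an unadjusted p under 0.05 in limma there were 9 of the 12, and 5944 of all 12661 genes. GARS1 (0.42), CARS1 (0.36), WARS1 (0.28), IARS1 (0.26) and LARS1 (0.25) were past the p limit and within the fold limit. SARS1 (0.13) and TARS1 (0.14) were positive without passing, and NARS1 (-0.16) and EPRS1 (-0.13) were negative. The calls of AARS1 and MARS1 were lost under median-ratio scaling, at 0.43 and 0.48. AARS1 also lost its call without DMSO replicate 3 (0.46) or isgCtrl replicate 3 (0.45).

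TRIB3 and EIF4EBP1 rose as well, with log2 fold changes of 0.60 ± 0.063 (adjusted p = 0.00211) and 0.61 ± 0.053 (adjusted p = 0.00127). In both, every isgCtrl sample was above every DMSO sample. PSPH rose by 0.48 (adjusted p = 0.00685), just past the fold limit, and was within it without DMSO replicate 3 (0.47) or isgCtrl replicate 3 (0.42). Its call was also lost under median-ratio scaling. ATF4 was higher in isgCtrl without overlap, at 437 ± 13.9 against 364 ± 12.6 TPM, but its log2 fold change of 0.26 (adjusted p = 0.0172) was within the limit. DDIT4 and SHMT2, at -0.22 (adjusted p = 0.0236) and 0.26 (adjusted p = 0.0216), were within it too.

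Other textbook targets went down in the same cells. ASNS was at 6.57 ± 0.725 TPM in isgCtrl against 12.2 ± 1.55 TPM in DMSO, with a log2 fold change of -0.80 ± 0.11 (adjusted p = 0.00510) and no overlap. PSAT1 fell by 0.54 on the log2 scale (adjusted p = 0.00992), and by 0.47, within the limit, without DMSO replicate 1. DDIT3 was lower without overlap, at -1.26 ± 0.31 (adjusted p = 0.0253), but this call was lost without DMSO replicate 1 or 2 or isgCtrl replicate 1 or 2, with adjusted p between 0.0594 and 0.0759. PHGDH was not called (-0.72, adjusted p = 0.151), and without isgCtrl replicate 3 it was (-1.12, adjusted p = 0.00695). NUPR1 was called lower only without DMSO replicate 3 (-0.99, adjusted p = 0.0159), but it passed the filter only through the DMSO group. MARS1 and DDIT3, whose exons overlap on opposite strands, thus moved in opposite directions here.

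The remaining tested members were not called in this comparison. Log2 fold changes were 0.35 for CEBPB (adjusted p = 0.0675), 0.13 for CEBPG, -0.01 for ATF5, 0.06 for CHAC1, 0.01 for SESN2 and 0.05 for PPP1R15A. Among the enzymes they were 0.31 for GPT2 (adjusted p = 0.0651), 0.12 for PCK2, 0.11 for MTHFD2 and -0.03 for ALDH1L2, and STC2 gave 0.33 (adjusted p = 0.263).

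Ordered by mean TPM, ATF4 was highest in MS023 (520), then isgCtrl (437), PRMT1-KO (428) and DMSO (364), and the isgCtrl and PRMT1-KO values did not differ beyond their spread. For PPP1R15A and ATF5 the MS023 group stood alone: PPP1R15A was at 53.3 TPM there and at 22.6 to 23.7 TPM in the other groups, and ATF5 at 114 TPM against 48.02 to 53.3 TPM. For YARS1 the order was PRMT1-KO (212), isgCtrl (198), MS023 (139) and DMSO (119), with the guide groups overlapping each other. Summed over the 12 synthetases, each sample had 1112 to 1165 TPM in DMSO, 1118 to 1229 in MS023, 1339 to 1397 TPM in isgCtrl and 1311 to 1349 TPM in PRMT1-KO.

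Whether MS023 and PRMT1-KO changed the members differently was tested as the difference of both effects in a fit of all 12 samples. Of 35 members, 4 were higher (9.69% of all 13256 genes) and 4 lower (14.7% of all). The difference was 1.23 for ATF5 (adjusted p = 9.82e-06), 1.19 for PPP1R15A (adjusted p = 3.18e-04), 0.56 for MARS1 (adjusted p = 0.00417) and 0.54 for ATF4 (adjusted p = 2.33e-04) on the log2 scale. It was -1.05 for ALDH1L2 (adjusted p = 0.0185), -0.999 for GPT2 (adjusted p = 0.00525), -0.56 for PCK2 (adjusted p = 0.00568) and -0.49 for PSAT1 (adjusted p = 0.00954). MARS1 and PSAT1 were called in neither comparison on its own, and each came from changes of opposite sign. DDIT4 differed by 0.36 (adjusted p = 0.00168), within the fold limit, and GDF15 by 0.94 (adjusted p = 0.0605). Under median-ratio scaling 5 members were higher and 3 lower, and under quantile normalization 4 and 2. PSAT1 lost its call under both and without DMSO replicate 1 (-0.42), MS023 replicate 3 (-0.44), isgCtrl replicate 2 (-0.44) or PRMT1-KO replicate 1 (-0.47). Without MS023 replicate 1, PCK2 (-0.47) and MARS1 (0.47) lost theirs. GDF15 gained one without DMSO replicate 2 (1.08), MS023 replicate 3 (1.16) or PRMT1-KO replicate 3 (1.13), PHGDH without isgCtrl replicate 3 (-0.99) and LARS1 without MS023 replicate 3 (-0.50).

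Genes around the members were described by lists. Of the 20 other ATF4 targets (amino acid transporters, other synthesis enzymes and secreted factors), 16 were tested in MS023 against DMSO, of which 2 rose and 3 fell, shares close to the 11.6% and 19.3% of all genes. TNFRSF10B, the death receptor DR5, rose by 1.18 (adjusted p = 2.17e-04) and NIBAN1, a regulator of eIF2 signaling, by 0.92 (adjusted p = 0.00103) on the log2 scale. XPOT, the tRNA exporter, gave -1.204 (adjusted p = 3.80e-04), CBS, cystathionine beta-synthase, -1.08 (adjusted p = 0.00398) and SLC1A4, a neutral amino acid transporter, -0.89 (adjusted p = 4.57e-04). The list's median was -0.13. Of the 17 kinases, subunits and regulators of eIF2 and eIF2B, IMPACT, an inhibitor of GCN2 activation, fell (-0.89, adjusted p = 7.30e-04) and none rose, which is under the share of all genes in both directions.

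Mitochondrial tRNA synthetases had 2 of 16 lower after MS023: TARS2 (-0.72, adjusted p = 0.00204) and RARS2 (-0.53, adjusted p = 0.00329), a share under the 19.3% of all genes. The other one-carbon and glycine enzymes had 4 of 9 lower, above that share, and none higher, led by MTR (-0.91) and TYMS (-0.81), which make methionine and thymidylate, and the cytosolic folate enzyme MTHFD1 (-0.78). Their median log2 fold change was -0.40. By contrast, 7 of 18 genes of the ATF6 and XBP1 arms of the unfolded protein response rose (11.6% of all genes did) and none fell, with a median of 0.40. HERPUD1 (1.999, adjusted p = 5.52e-05), DNAJB9 (1.89, adjusted p = 3.32e-04) and XBP1 (1.15, adjusted p = 8.51e-05) led them. The endoplasmic reticulum stress element (ERSE) was searched with its spaced consensus on both strands. It was in a promoter of 6 of these 18 genes (0.0916% of all genes) and of 0 of the 28 members. The CARE core was in 1 of the 18, HERPUD1. HERPUD1 and DNAJB9 had no ERSE match, and XBP1 had a match. The list was made of known genes of this response, so the share describes the list and tests nothing.

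In PRMT1-KO against isgCtrl, limma called no gene of these 6 lists. An unadjusted p under 0.05 was reached by 5 of the 16 other ATF4 targets, 4 of the 18 ATF6 and XBP1 arm genes, 3 of the 9 one-carbon enzymes, 1 of the 16 mitochondrial synthetases, 1 of the 11 other cytosolic synthetases and scaffolds and 0 of the 17 eIF2 genes, beside 18.6% of all genes. In isgCtrl against DMSO, where 7.23% of all genes were higher and 6.70% lower, 4 of the 16 other ATF4 targets were higher, led by the cationic amino acid transporter SLC7A1 (0.59), CBS (0.57) and the leucine transporter SLC7A5 (0.56), and ATF3 (-0.86) and TNFRSF10B (-0.62) were lower. FARSA (0.56) and VARS1 (0.49) of the other cytosolic synthetases and SARS2 (0.52) of the 16 mitochondrial ones were higher, the latter count being at the share of all genes. GCN1 (0.60), which activates the amino acid sensor GCN2, was higher and EIF2AK3 (-0.80), the endoplasmic reticulum sensor PERK, lower. SHMT1 (0.63) was the single one-carbon enzyme called. Of the ATF6 and XBP1 arm genes 4 of 18 were lower, led by DNAJB9 (-0.53), ERN1 (-0.52) and HSP90B1 (-0.52), and the median was -0.39.

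In the difference of both effects, in which 9.69% of all genes were higher and 14.7% lower, the same lists had 8 of 18 ATF6 and XBP1 arm genes higher, led by HERPUD1 (1.68), DNAJB9 (1.62) and XBP1 (1.27). Of the other ATF4 targets 5 were higher, led by ATF3 (1.27), NIBAN1 (1.01) and TNFRSF10B (0.78). XPOT (-1.02), CBS (-0.92) and SLC1A4 (-0.80) were the 3 lower. ATF3 was called neither after MS023 nor in PRMT1-KO. Its mean log2(TPM+1) was 3.27 in DMSO, 3.53 in MS023, 2.41 in isgCtrl and 1.39 in PRMT1-KO. The difference for ATF3 thus came mostly from its lower level in PRMT1-KO. TARS3 (-0.89), VARS1 (-0.70) and QARS1 (-0.56) led 4 lower cytosolic synthetases outside the members. RARS2 (-0.53) and TARS2 (-0.53) were the lower mitochondrial synthetases, and IMPACT (-0.70) and EIF2S1 (-0.52), the alpha subunit of eIF2, the lower eIF2 genes. These counts, 2 of 16 and 2 of 17, are under the share of all genes. Of the one-carbon enzymes 4 were lower, led by TYMS (-0.89), MTR (-0.79) and MTHFD1 (-0.65).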

How the data were processed

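RNA of 12 JJN3 samples (4 groups of 3, from the labels) was measured. The authors aligned reads, after Trimmomatic, to hg38 (GENCODE V35) by STAR, used Salmon to estimate abundances and deposited gene values as log2(TPM+1). Library strandedness is not given in the sources used here. The deposited log2 values were used as they stand. Depth per sample is not in TPM, so no counting interval is given and precision rests on 3 replicates. Within a comparison, limma 3.58.1 in R 4.3.3 was fitted to genes with a mean above 1 in either group (any group for the difference of effects), with eBayes without trend and Benjamini-Hochberg adjustment. The fit was tested on simulated data. An exact permutation test of 3 against 3 cannot go below p = 0.1. Calls needed adjusted p under 0.05 and a log2 fold change beyond 0.48.

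Values in every sample are given for ATF4, DDIT3, ASNS, TRIB3 and CHAC1, the 8 members with the largest called change after MS023, any called in PRMT1-KO and the 5 with the largest called change in isgCtrl. WARS1, LARS1, NUPR1, PSAT1 and MARS1 were added after their values were seen. Of each other list, up to 3 called genes in each direction are named, and some genes of these lists are not reported here. The members and lists were chosen with earlier results of these data known. Alternatives were a looser filter (every gene above 0) and a stricter one (above 1 in every sample), 0.1 as the pseudocount, scaling by median ratios or quantiles, eBayes with trend, a replicate block, all 12 samples in a single fit and leaving out each sample. Positions are from GENCODE v44 (GRCh38) and promoters from RefSeq (GRCh38.p14). Of 26 rows that carry the name of a member with a copy number (11 members), 2 exceeded 1 TPM in any sample, at most 2.91 TPM for ATF4P3 and 1.52 TPM for PSPHP1.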

Additional observations from a re-analysis of the deposited data

Results flagged for a closer look

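The effects of MS023 and of PRMT1-KO on 8 of 35 members differed by a test of the difference itself, in a limma fit of all 12 samples that called 24.4% of all genes, so the members' share was no higher than that of all genes. The difference, MS023 effect minus PRMT1-KO effect on the log2 scale, was 1.23 for ATF5, 1.19 for PPP1R15A, 0.56 for MARS1 and 0.54 for ATF4. For ALDH1L2 it was -1.05, for GPT2 -0.999, for PCK2 -0.56 and for PSAT1 -0.49. The MS023 effect alone was beyond the fold limit for 6 of the 8 (ATF5, PPP1R15A, ATF4, ALDH1L2, GPT2 and PCK2), and the PRMT1-KO effect for none. The arms differ in Cas9, guide, sorting, puromycin, doxycycline and vehicle, which cannot be told apart from the difference between drug and guide, and no source used here says whether both came from the same stock of cells.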

How the results depend on the processing

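The labels do not say whether the replicate numbers of the titles pair the samples. Deviations from the group means correlated at 0.021 to 0.102 between equal numbers in MS023 and DMSO. They correlated at -0.142 to 0.070 in PRMT1-KO and isgCtrl and at -0.228 to -0.032 in isgCtrl and DMSO. Such low values show no strong pairing but cannot exclude a weak one. With the number as a replicate block, member counts were 5 higher and 4 lower for MS023, 0 and 0 for PRMT1-KO, 6 and 2 for isgCtrl and 4 and 4 for the difference. The block ended the calls of DDIT3 in isgCtrl (adjusted p = 0.0782) and of PRMT1 in PRMT1-KO (adjusted p = 0.149).

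Under median-ratio scaling 1 member synthetase was higher after MS023 instead of 0, and in isgCtrl 3 members and 1 synthetase were higher instead of 6 and 3. Under quantile normalization 2 members instead of 4 were lower in the difference of effects. Leaving out a sample at a time gave 2 (without MS023 replicate 1) to 6 (without DMSO replicate 3) members lower after MS023, 0 to 1 synthetases lower after MS023, 1 (without DMSO replicate 1) to 4 (without DMSO replicate 3) members lower in isgCtrl, and 0 to 1 synthetases higher and 0 to 1 lower in the difference. With 2 samples left in a group, fewer samples carry each test. The other counts stayed within 1.5 times.

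Log2 fold changes near 0, none of them called, changed sign. For MS023 these were ASNS (0.11 with median ratios, 0.14 with quantiles, -0.10 to 0.064 leaving out samples) and PRMT1 (-0.026 with quantiles). For PRMT1-KO they were ATF4 (0.013 with median ratios), TRIB3 (0.019 with median ratios, 0.015 with quantiles) and, leaving out samples, DDIT3 (-0.17 to 0.42), TRIB3 (-0.066 to 0.014), PPP1R15A (-0.051 to 0.097), PHGDH (-0.21 to 0.42) and PCK2 (-0.024 to 0.10). For isgCtrl they were PPP1R15A (-0.028) and ALDH1L2 (0.0012) with quantiles and, leaving out samples, ATF5 (-0.059 to 0.025), PPP1R15A (-0.054 to 0.18) and ALDH1L2 (-0.17 to 0.13), and in the difference CHAC1 (-0.099 to 0.32). DDIT3 was called after MS023 with the eBayes trend (adjusted p = 0.0374). Testing every gene above 0 ended the calls of PHGDH after MS023 (adjusted p = 0.0529) and DDIT3 in isgCtrl (adjusted p = 0.0667). Where the construction of the alternative does not show it, the cause was not tested. With 3 samples a group, the median half-width of the members' 95% intervals was 0.21 for MS023, 0.16 for PRMT1-KO and 0.16 for isgCtrl.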
